A study of Arabidopsis thaliana with 32 samples.

Results

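Roots of the Arabidopsis thaliana mutant max2 were compared with roots of the wild type Col-0, neither of which had received zaxinone. Of 3443 genes listed in at least 1 of the study's 4 genotype tables, the 1049 genes listed in both the Col-0 and the max2 table were taken, and the 4 max2 mock libraries were compared with the 4 Col-0 mock libraries. Wild-type plants and d14, kai2 and max2 mutants were grown in hydroponics to an age of 5 weeks in this study. Either 20 µM zaxinone, a plant apocarotenoid, or its carrier (mock, 1% acetone) was added to the medium, and roots were collected after 6 h. There were 8 groups of 4 polyadenylated RNA libraries, 32 in all. The groups used are max2 mock and Col-0 mock and, for reference, max2 and Col-0 with zaxinone, d14 mock and kai2 mock. All plants called mock therefore carried acetone, and no group had plain medium. The labels give the genotypes as mutant names with no allele, and do not say whether libraries of a group came from separate plants or cultures. A p-value here therefore reflects only how much the libraries at hand vary, which may be technical.

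MAX2 is an F-box protein, the substrate-binding subunit of an SCF ubiquitin ligase. It serves a pair of related receptors: D14, which perceives strigolactones, and KAI2, which perceives karrikins and an as yet unidentified endogenous ligand. Ligand-bound receptor and MAX2 mark SMXL repressor proteins for degradation, and in roots these pathways are known for effects on lateral root and root hair growth. A max2 mutant lacks both outputs, whereas d14 and kai2 mutants each lack only their own.

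A table lists a gene only where the authors' test found a response to zaxinone in that genotype (their adjusted p under 0.05 and an absolute log2 change of at least 1). The 1049 genes are thus zaxinone-responsive in both genotypes, and the same mock libraries took part in choosing them. They held 3.37 to 3.78% of all fragments in the Col-0 mock libraries and 4.15 to 5.26% in the max2 mock libraries. MAX2 itself and all other strigolactone and karrikin genes of a chosen list were not in both tables and are not analysed here. The genotype label could therefore not be checked on the mutated gene. None of 12 shoot and photosynthesis markers and none of 18 root hair markers was in both tables, while 11 of 24 endodermis and suberin genes were. Of the 11, 0 were called higher or lower in max2 (1 lower under TMM or without max2 mock replicate 3), beside 29.7% of all tested genes. The largest difference among the 11 was in CASP5, at -1.09 on the log2 scale (max2 over Col-0), while 7 of the 11 were positive. In bulk root RNA, fewer cells of a type and less RNA per cell cannot be told apart.

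Library totals ran from 67581141 to 91415225 fragments in Col-0 mock and from 47862385 to 64118611 in max2 mock. Replicate 1 of max2 mock stood apart from its group. Over 719 genes its rank correlation with the Col-0 mock libraries (0.942 to 0.972) reached above that with the other max2 mock libraries (0.950 to 0.964). Among genes called higher in max2, it was the max2 library nearest to Col-0 in 68.3%. The counts over all genes without it are given with the main comparison.

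Counts were compared per gene with edgeR's quasi-likelihood test, scaled by each library's total fragments, with Benjamini-Hochberg adjustment over all genes tested. A gene is called higher or lower at an adjusted p under 0.05. Differences are log2(max2/Col-0) with a standard error (SE), taken as the absolute difference divided by the square root of the test's F statistic. Levels are FPKM (the authors' fragments per kilobase of transcript, scaled by library depth), given in the order of replicates 1 to 4.

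In max2 mock roots 205 of 970 tested genes were higher (21.1%) and 83 were lower (8.56%), 29.7% in all. The other 79 of the 1049 genes had too few counts to be tested. The median difference of all tested genes was 0.22 on the log2 scale, and 624 were positive. Called genes mostly moved by less than 1 on the log2 scale: the median was 0.86 among those higher and -0.90 among those lower, and 75 and 38 of them passed an absolute log2 change of 1. In 222 of the 288 called genes the 4 max2 libraries all lay on the same side of the 4 Col-0 libraries. Libraries separated in this way in 284 of all tested genes (29.3%).

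The balance of directions depended on the scaling. With TMM factors computed over the tested genes, which move the median gene by -0.202, 125 genes were higher and 132 lower. The higher genes thus made up 71.18% of calls with library totals and 48.64% with TMM. All 125 and all of the original 83 were called in the same direction under both scalings. The number higher was 136 without Col-0 mock replicate 1, 119 without Col-0 mock replicate 4, 132 without max2 mock replicate 2 and 131 without max2 mock replicate 3. The number lower was 51 without Col-0 mock replicate 4, 50 without max2 mock replicate 2 and 54 without max2 mock replicate 3. Without max2 mock replicate 1 the counts were 224 and 83.

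**Figure D1:**
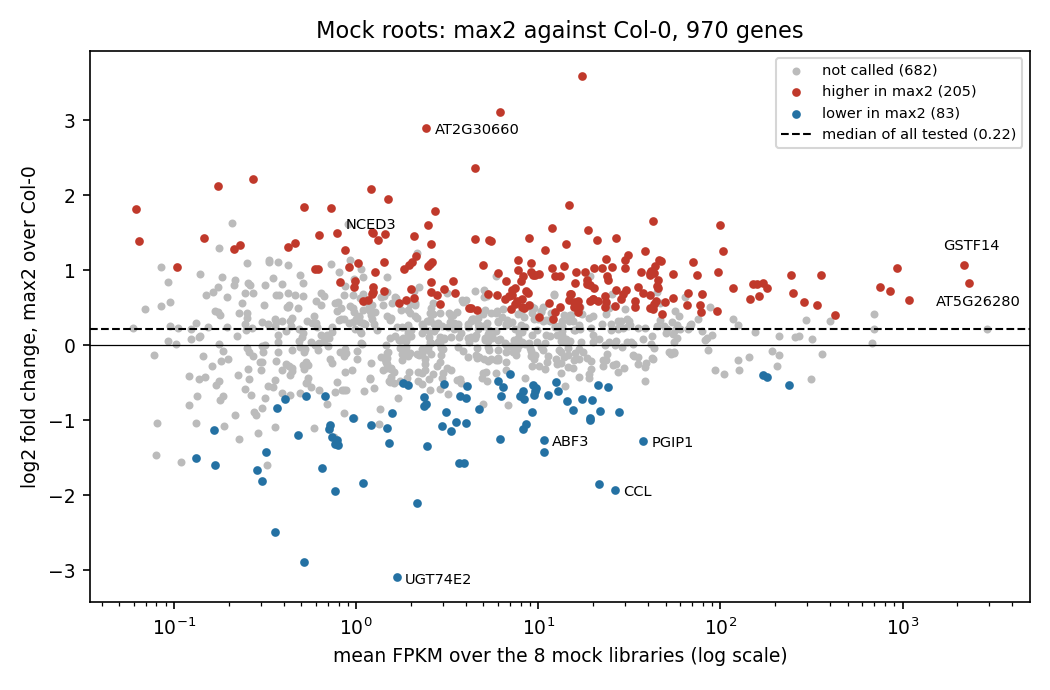
Difference between max2 and Col-0 mock roots (log2 scale, vertical) against the mean level (FPKM, log axis) for each of the 970 tested genes, coloured by call. The 205 genes called higher lie above 0 and the 83 called lower below it, and the dashed line marks the median of 0.22. UGT74E2 (-3.10) and CCL (-1.92) are labelled below 0 and NCED3 (1.495) above it.

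In a list of detoxification genes, the 8 that were called were all lower in max2, and 6 of the 8 were UDP-glycosyltransferases. This does not hold for all genes of the families concerned. The glutathione S-transferase GSTF14, which is not in the list, was called higher, and of all 28 tested cytochrome P450s 5 were higher and 3 lower. The detoxification response is a set of cytochrome P450s, glutathione S-transferases and UDP-glycosyltransferases (UGTs) that modify foreign and reactive compounds, and many of its promoters hold TGACG elements, the core bound by TGA bZIP transcription factors. Of the 6 UGTs of the detoxification list that were lower in max2, 3 held the element and 3 (UGT73B2, UGT74E2 and UGT75B1) did not, and the promoters of the 3 with it and of UGT74E2, the one that fell most, are shown.

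The 250 bases before the annotated gene start were read from the RefSeq genome TAIR10.1, 5′ to 3′ on the strand of the gene, with TGACG or its reverse complement CGTCA in capitals. UGT73B1 (AT4G34138) was read from chr4:16350204-16350453 on the minus strand, UGT73B3 (AT4G34131) from chr4:16344819-16345068 on the minus strand, UGT73B4 (AT2G15490) from chr2:6761385-6761634 on the plus strand and UGT74E2 (AT1G05680) from chr1:1704839-1705088 on the minus strand.
UGT73B1: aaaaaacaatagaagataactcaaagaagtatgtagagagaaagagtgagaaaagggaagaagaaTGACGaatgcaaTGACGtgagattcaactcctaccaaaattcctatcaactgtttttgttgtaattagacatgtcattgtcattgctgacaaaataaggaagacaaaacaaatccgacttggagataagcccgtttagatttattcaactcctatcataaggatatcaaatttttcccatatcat
UGT73B3: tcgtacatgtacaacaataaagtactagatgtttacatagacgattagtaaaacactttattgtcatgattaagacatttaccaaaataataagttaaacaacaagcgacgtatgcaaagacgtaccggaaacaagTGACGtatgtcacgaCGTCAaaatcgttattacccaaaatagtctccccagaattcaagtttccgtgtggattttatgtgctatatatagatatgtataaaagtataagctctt
UGT73B4: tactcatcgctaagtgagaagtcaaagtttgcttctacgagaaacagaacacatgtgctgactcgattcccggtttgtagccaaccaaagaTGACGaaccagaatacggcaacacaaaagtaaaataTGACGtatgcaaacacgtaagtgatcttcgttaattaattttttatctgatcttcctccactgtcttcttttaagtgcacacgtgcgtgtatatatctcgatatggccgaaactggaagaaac
UGT74E2: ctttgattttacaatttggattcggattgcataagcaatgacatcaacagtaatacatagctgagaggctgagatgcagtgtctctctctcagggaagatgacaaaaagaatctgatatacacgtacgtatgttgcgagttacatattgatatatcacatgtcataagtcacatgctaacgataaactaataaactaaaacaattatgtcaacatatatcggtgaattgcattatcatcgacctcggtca

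The element stood at -185 and -173 from the gene start in UGT73B1, at -114 and -99 in UGT73B3 and at -159 and -123 in UGT73B4, and these letters were not in the window of UGT74E2. Over the genome, 5098 of 27443 protein-coding genes held it in this window (18.58%). It was in 237 of the 996 genes of both tables that have such a window (23.8%). Among the 29 genes in both tables from the detoxification list of 45, drawn up with results of these data known, 15 held it (51.72%). The share was alike among those lower in max2 mock (4 of 8) and the rest (11 of 21). A match describes the letters only.

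Of the 26 tested genes of the detoxification list, 8 were lower in max2 mock and 0 were higher, with a median of -0.28 on the log2 scale. Over all tested genes 8.56% were lower and 21.1% higher, with a median of 0.22. Under TMM 12 of the 26 were lower and 0 higher, with a median of -0.48, beside 132 of 970 lower over all tested genes. The 8 were UGT74E2, CYP81D11, UGT73B1, UGT73B2, UGT73B3, UGT73B4, UGT75B1 and GSTU19. Leaving out any 1 library gave 6 or 7 lower and 0 higher. The list was drawn up with results of these data known, and its genes were in the tables because zaxinone changed them.

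UGT74E2, which glycosylates the auxin precursor indole-3-butyric acid (AT1G05680, chr1:1703002-1704838, TAIR10.1), had 4.24, 2.34, 3.66 and 1.69 FPKM in Col-0 and 0.531, 0.258, 0.393 and 0.213 in max2. The 4 max2 libraries were all below the lowest Col-0 library. The difference was -3.10 ± 0.37 (log2, SE, adjusted p = 0.0019), or 8.55-fold lower. The mean count behind these values was 433 fragments in Col-0 and 33.25 in max2.

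CYP81D11, a cytochrome P450 induced by foreign chemicals (AT3G28740, chr3:10788698-10790553), had 0.801, 1.00, 1.46 and 1.603 FPKM in Col-0 and 0.454, 0.335, 0.327 and 0.156 in max2. Again no max2 library reached the lowest Col-0 library, and the difference was -1.94 ± 0.35 (log2, SE, adjusted p = 0.0037). GSTU19, a tau-class glutathione S-transferase (AT1G78380), was expressed far more strongly, at 183, 192, 186 and 215 FPKM in Col-0 and 150.1, 123, 157 and 159 in max2. Its groups also did not overlap, but its difference was only -0.40 ± 0.13 (log2, SE, adjusted p = 0.0374) and it lost its call in 9 other settings, among them without any 1 library other than max2 replicate 1 (adjusted p up to 0.109).

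UGT73B1, UGT73B2 and UGT73B3, glycosyltransferases that lie next to each other on chromosome 4 and use flavonoids among other substrates, were all lower. UGT73B1 (chr4:16347997-16350203) had 13.2, 10.6, 17.9 and 20.9 FPKM in Col-0 and 7.91, 6.03, 6.15 and 3.25 in max2, a difference of -1.42 ± 0.28 (log2, SE, adjusted p = 0.00485). UGT73B3 (chr4:16343057-16344818) had 3.74, 3.52, 4.42 and 4.45 FPKM in Col-0 and 2.07, 1.57, 2.12 and 1.89 in max2, a difference of -1.08 ± 0.17 (log2, SE, adjusted p = 0.00302). In both genes every max2 library was below every Col-0 library. UGT73B2 (chr4:16345150-16347434) was the lowest expressed, at 1.52, 1.52, 1.83 and 1.64 FPKM in Col-0 and 0.898, 0.685, 0.933 and 0.607 in max2, a difference of -1.06 ± 0.20 (log2, SE, adjusted p = 0.00415). The 3 are close paralogs, and how reads shared between them were assigned is not given in the sources used here.

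The relative UGT73B4 on chromosome 2 fell less, from 2.401, 1.76, 2.35 and 2.64 FPKM to 1.52, 1.74, 1.62 and 1.45. Its groups were separate by a narrow margin, with a difference of -0.53 ± 0.18 (log2, SE, adjusted p = 0.0462). It lost its call in 9 other settings, among them without any 1 library other than Col-0 replicate 2 (adjusted p up to 0.125). UGT75B1, which glycosylates benzoates and has been linked to callose at the cell plate, went from 0.891, 0.629, 0.487 and 0.644 FPKM in Col-0 to 0.242, 0.318, 0.303 and 0.299 in max2, a difference of -1.19 ± 0.25 (log2, SE, adjusted p = 0.00704). Over all genes that the deposited descriptions name as UDP-glycosyltransferases, 7 of 17 were lower and 0 higher (median -0.36). Over all tested genes 8.56% were lower and 21.1% higher. Under TMM 7 of the 17 were lower (median -0.57), beside 132 of 970 lower over all tested genes. Leaving out any 1 library gave 5 or 6 lower. All of the 7 except AT5G03490 are also in the detoxification count above. Glutathione S-transferases were not uniform: 1 of 15 was higher and 1 lower, and under TMM 1 was higher and 5 lower. The 1 lower was 2 without max2 replicate 1 and 0 without any 1 of the other libraries except Col-0 replicate 1. Of 28 cytochrome P450s, 5 were higher and 3 lower with a median of 0.05, and under TMM 2 were higher and 5 lower. Their number higher was 2, 2 and 3 without Col-0 replicates 1, 3 and 4 and 1, 2 and 3 without max2 replicates 2 to 4.

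**Figure D2:**
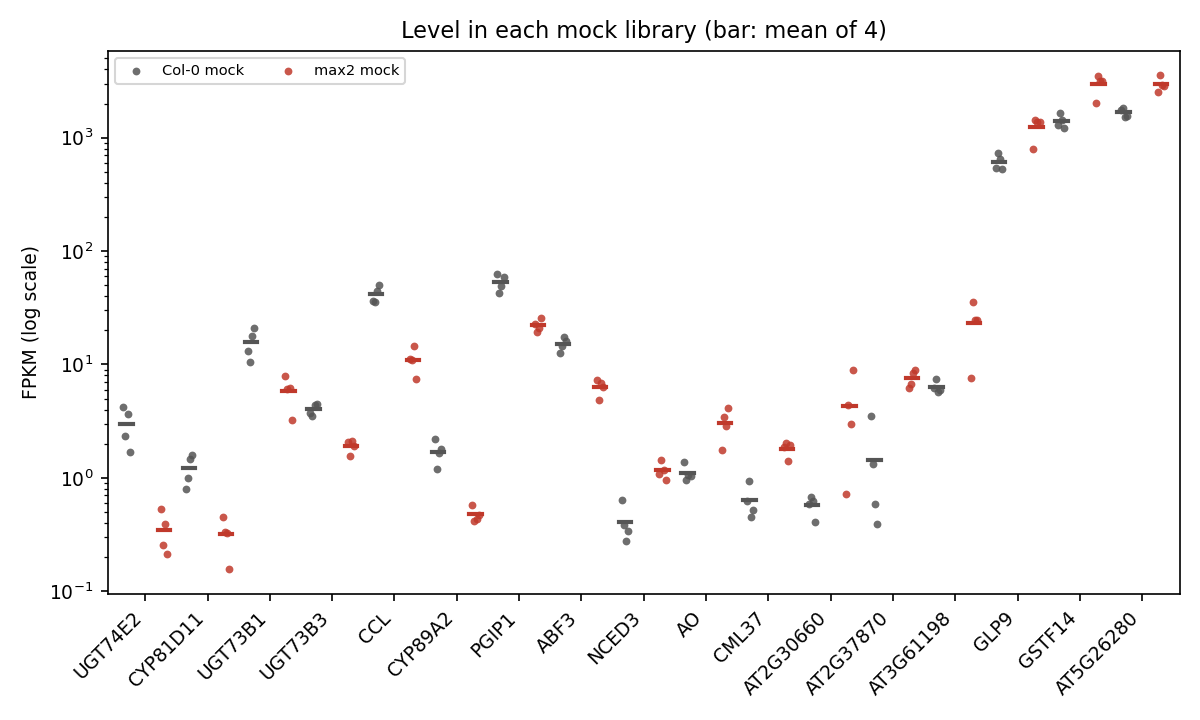
Level in each mock library (FPKM, log axis) for 17 genes, with 4 points for Col-0 and 4 for max2 and a bar at the mean of each group. UGT74E2 lies between 1.69 and 4.24 in Col-0 and between 0.213 and 0.531 in max2, while NCED3 lies between 0.279 and 0.633 in Col-0 and between 0.965 and 1.43 in max2.

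Among the other genes lower in max2 were several with roles in signalling and defence. CCL (AT3G26740, chr3:9827682-9828917), whose transcript is short-lived and oscillates with the circadian clock, had 36.0, 35.7, 44.8 and 50.4 FPKM in Col-0 and 11.1, 11.03, 14.5 and 7.46 in max2. The groups were widely apart, and the difference was -1.92 ± 0.21 (log2, SE, adjusted p = 0.00158), or 3.79-fold lower. CYP89A2, a cytochrome P450, went from 2.19, 1.204, 1.65 and 1.78 FPKM to 0.579, 0.417, 0.434 and 0.474, a difference of -1.84 ± 0.23 (log2, SE, adjusted p = 0.0019).

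PGIP1 encodes an inhibitor of fungal polygalacturonases, the enzymes with which fungi digest pectin (AT5G06860, chr5:2132350-2133587). It had 63.1, 43.0, 49.2 and 58.6 FPKM in Col-0 and 22.7, 19.2, 21.1 and 25.6 in max2, without overlap, and differed by -1.27 ± 0.16 (log2, SE, adjusted p = 0.0019). Its direct neighbour AT5G06865, a non-coding RNA, was also called lower (-1.12 on the log2 scale, adjusted p = 0.0173). Whether reads were shared between these neighbours was not tested. AT4G15765, annotated as an FAD/NAD(P)-binding oxidoreductase, had 4.17, 3.73, 2.56 and 3.66 FPKM in Col-0 and 1.73, 1.22, 1.13 and 1.49 in max2, again without overlap, a difference of -1.34 ± 0.21 (log2, SE, adjusted p = 0.00302). AGL14, a MADS-box transcription factor of the root, went from 31.7, 31.9, 39.2 and 40.3 FPKM to 17.37, 19.5, 23.4 and 17.2, a difference of -0.88 ± 0.15 (log2, SE, adjusted p = 0.00369).

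Genes of the jasmonate list were few, with 3 tested and 2 lower, beside 8.56% lower over all tested genes. The 2 became 1 without Col-0 replicate 1 or 4 or max2 replicate 2, 3 or 4. ST2A, the sulfotransferase that inactivates 12-hydroxyjasmonate, had 8.26, 3.68, 4.36 and 7.15 FPKM in Col-0 and 2.31, 1.47, 1.69 and 2.39 in max2, a difference of -1.57 ± 0.28 (log2, SE, adjusted p = 0.0037). JAZ7, a repressor of jasmonate responses, had 1.71, 1.53, 1.68 and 3.29 FPKM in Col-0 and 1.26, 0.826, 1.09 and 1.19 in max2. Its difference of -0.90 ± 0.29 (log2, SE, adjusted p = 0.0381) rested on the high Col-0 replicate 4: without that library it was -0.58 with an adjusted p of 0.114. The call was also lost without Col-0 replicate 1 or max2 replicate 2, 3 or 4 (adjusted p from 0.051 to 0.0978). The aquaporin PIP2;6 had 0.642, 0.365, 0.455 and 0.441 FPKM in Col-0 and 0.129, 0.0767, 0.117 and 0.211 in max2, a low level in both, and differed by -1.81 ± 0.34 (log2, SE, adjusted p = 0.00415).

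NCED3, the rate-limiting enzyme of abscisic acid synthesis (AT3G14440, chr3:4831286-4834015), had 0.633, 0.388, 0.279 and 0.341 FPKM in Col-0 and 1.09, 1.43, 1.17 and 0.965 in max2. Every max2 library was above every Col-0 library, with a difference of 1.495 ± 0.27 (log2, SE, adjusted p = 0.00371), or 2.83-fold higher. Of 15 tested genes of the abscisic acid response list, 1 was higher and 2 lower (median 0.17), beside 21.1% higher and 8.56% lower over all tested genes, and under TMM 0 were higher and 2 lower (median -0.03). The 2 lower became 1 without Col-0 replicate 1 or 4 or max2 replicate 4.

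ABF3, a bZIP transcription factor of the abscisic acid response (AT4G34000, chr4:16295334-16298285), was lower, with 12.6, 14.6, 17.3 and 16.0 FPKM in Col-0 and 7.26, 4.84, 6.88 and 6.32 in max2, a difference of -1.26 ± 0.16 (log2, SE, adjusted p = 0.00196). HB12, a homeodomain-leucine zipper factor, had 8.21, 6.80, 6.72 and 8.97 FPKM in Col-0 and 4.40, 5.65, 5.61 and 3.63 in max2, a smaller difference of -0.67 ± 0.19 (log2, SE, adjusted p = 0.0228). The HB12 call was lost without Col-0 replicate 1 or 4 or max2 replicate 4 (adjusted p from 0.0527 to 0.0694). LTI30, a dehydrin that protects membranes in cold and drought, was the member called higher, with 62.2, 57.1, 61.9 and 70.2 FPKM in Col-0 and 92.0, 81.1, 107 and 82.9 in max2. Its difference was 0.53 ± 0.13 (log2, SE, adjusted p = 0.0153), and under TMM it was 0.32 with an adjusted p of 0.093.

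Among called genes with a mean of at least 1 FPKM over the mock libraries and no overlap between the groups, the largest rises were in genes of little known function. AT2G30660, annotated as a crotonase family protein, had 0.583, 0.676, 0.624 and 0.405 FPKM in Col-0 and 0.726, 4.42, 2.98 and 8.97 in max2. Replicate 1 of max2 lay just above the Col-0 range and the other 3 far above it. The difference was 2.90 ± 0.58 (log2, SE, adjusted p = 0.0054), and 3.25 ± 0.36 (adjusted p = 0.000372) without max2 replicate 1. AT2G37870, a lipid transfer protein family member, had 3.49, 1.31, 0.592 and 0.391 FPKM in Col-0 and 6.20, 6.66, 8.38 and 8.95 in max2, a difference of 2.37 ± 0.54 (log2, SE, adjusted p = 0.0105). AT3G61198, annotated as a non-coding RNA, had 6.17, 7.43, 5.72 and 5.92 FPKM in Col-0 and 7.57, 35.3, 24.7 and 24.6 in max2, a difference of 1.87 ± 0.36 (log2, SE, adjusted p = 0.00477).

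Genes of very high level were also called higher. AT5G26280, annotated as a TRAF-like family protein, had 1766, 1816, 1530.4 and 1568 FPKM in Col-0 and 2520.4, 3537, 2929.7 and 2862 in max2, without overlap. Its mean share of all fragments was 0.243% in Col-0 and 0.431% in max2, and it differed by 0.83 ± 0.14 (log2, SE, adjusted p = 0.00366). GSTF14, a phi-class glutathione S-transferase, had 1302, 1652, 1434 and 1208 FPKM in Col-0 and 2015, 3481, 3167 and 3145 in max2, a difference of 1.08 ± 0.18 (log2, SE, adjusted p = 0.00366). The germin-like protein GLP9 had 537, 728, 650.4 and 528 FPKM in Col-0 and 787, 1434, 1379 and 1374 in max2, a difference of 1.02 ± 0.20 (log2, SE, adjusted p = 0.00462). In all 3 genes max2 replicate 1 was the lowest max2 library.

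Transport, metabolism and signalling genes were also higher. SULTR1;1, a high-affinity sulfate transporter of the root surface, had 24.8, 38.4, 33.1 and 32.0 FPKM in Col-0 and 48.9, 63.5, 61.4 and 60.5 in max2, a difference of 0.87 ± 0.16 (log2, SE, adjusted p = 0.0037). AO, the L-aspartate oxidase that starts NAD synthesis, had 1.37, 0.958, 1.06 and 1.04 FPKM in Col-0 and 1.76, 3.47, 2.88 and 4.11 in max2, a difference of 1.46 ± 0.25 (log2, SE, adjusted p = 0.00369). CML37, a calmodulin-like calcium sensor, had 0.621, 0.943, 0.453 and 0.517 FPKM in Col-0 and 1.87, 2.02, 1.40 and 1.95 in max2, a difference of 1.51 ± 0.26 (log2, SE, adjusted p = 0.00369). Each of the 3 was without overlap between the groups.

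ELF4, a component of the evening complex of the circadian clock, was steady within each group, with 13.3, 12.7, 12.9 and 13.3 FPKM in Col-0 and 23.58, 22.8, 25.7 and 23.5 in max2, a difference of 0.87 ± 0.12 (log2, SE, adjusted p = 0.00283). G6PD3, a plastid glucose-6-phosphate dehydrogenase, differed by 0.98 ± 0.22 (log2, SE, adjusted p = 0.00849). Smaller rises were called in F6'H1, which makes the precursor of the iron-mobilising coumarin scopoletin (0.82 on the log2 scale, adjusted p = 0.0136), in IPT5, a cytokinin synthesis enzyme (0.63, adjusted p = 0.0153), and in the stress transcription factors WRKY53 (0.61, adjusted p = 0.0154) and ZAT12 (0.69, adjusted p = 0.0158). Each of these 6 is the only called gene of its list (circadian clock, nitrate, iron deficiency, cytokinin, immunity, and touch and early stress), and those lists had 1 to 3 tested members. Without max2 replicate 1, the immunity list and the touch and early stress list each had 2 genes called higher.

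Genes were also counted by family, formed from words in the deposited descriptions after the values had been seen. They are counts only, and some genes are in more than 1 family. They are to be read beside 21.1% higher and 8.56% lower over all genes tested and, under TMM, beside 125 higher and 132 lower of 970. Of 62 genes described as kinases, 23 were higher and 1 lower (median 0.40), and under TMM 18 were higher and 2 lower (median 0.22). The 23 became 17 without Col-0 replicate 1, 16 without Col-0 replicate 4 and 17 without any 1 of max2 replicates 2 to 4. Of 36 leucine-rich repeat genes, of which 23 are also kinases, 14 were higher and 1 lower (median 0.54), and under TMM 10 and 2. The 1 lower became 2 without Col-0 replicate 3 or max2 replicate 1. The 14 became 9 without Col-0 replicate 1, 8 without Col-0 replicate 4 and 9 without max2 replicate 3. The leucine-rich repeat kinase AT1G07550 had 10.05, 13.0, 11.2 and 9.18 FPKM in Col-0 and 16.2, 23.4, 24.0 and 21.5 in max2, a difference of 0.97 ± 0.16 (log2, SE, adjusted p = 0.00369).

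Of 33 genes described as transmembrane proteins, 12 were higher and 0 lower (median 0.66, and 10 higher under TMM). Of 9 genes described as peroxidases, which oxidise a range of substrates with peroxide, 4 were higher and 0 lower under both scalings (median 0.61). The peroxidase Prx37 had 179.7, 173, 153 and 167 FPKM in Col-0 and 345, 271, 307 and 368 in max2, a difference of 0.94 ± 0.13 (log2, SE, adjusted p = 0.00256). Of 13 genes described as extensin, proline-rich or hydroxyproline-rich, 5 were higher and 0 lower (median 0.48, and 4 higher under TMM). Among the 5, AT1G26240, AT1G26250 and AT4G08380 are described as extensin-like, a type of cell-wall glycoprotein, and the other 2 as late embryogenesis abundant proteins. That count was 3 without any 1 of Col-0 replicates 1 and 4 and max2 replicates 2 and 3. Without max2 replicate 1 it was 7 higher.

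Of 18 genes described as disease resistance proteins, 7 were higher and 0 lower (median 0.54), and 3 were higher under TMM. Of the 7, 5 are also in the leucine-rich repeat count. The 7 became 2 without Col-0 replicate 1, 2 without Col-0 replicate 4, 2 without max2 replicate 2, 1 without max2 replicate 3 and 4 without max2 replicate 4. Of 6 lectins, which bind carbohydrates, 3 were higher and 0 lower under both scalings.

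**Figure D3:**
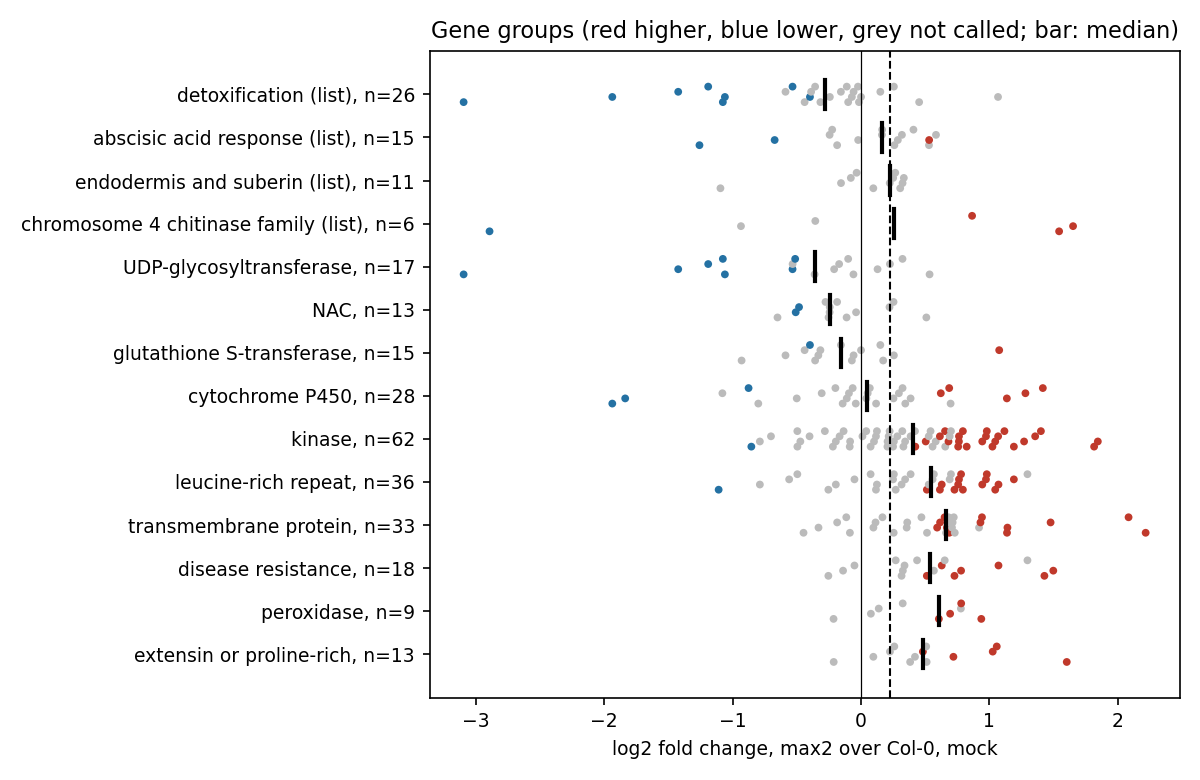
Difference between max2 and Col-0 mock roots (log2 scale, horizontal) for every tested gene of the lists and families, 1 row per group, red where called higher, blue where called lower and grey otherwise, with a bar at the group median and a dashed line at the median of all tested genes (0.22). The genes of the detoxification list have a median of -0.28 and the UDP-glycosyltransferases of -0.36, while the kinases have a median of 0.40 and the transmembrane proteins of 0.66.

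A cluster of chitinase-like genes on chromosome 4 was split. Of 6 tested, 3 were higher and 1 lower (3 and 2 under TMM and without Col-0 replicate 1). Over all tested genes 21.1% were higher and 8.56% lower, and under TMM 125 and 132 of 970. AT4G19750 had 11.6, 22.7, 24.0 and 24.0 FPKM in Col-0 and 22.9, 86.0, 45.5 and 104 in max2, a difference of 1.65 ± 0.41 (log2, SE, adjusted p = 0.0146). Replicate 1 of max2 lay within the Col-0 range. Its neighbour AT4G19760 had 5.32, 10.3, 10.5 and 12.4 FPKM in Col-0 and 16.3, 37.9, 22.6 and 35.5 in max2, a difference of 1.54 ± 0.31 (log2, SE, adjusted p = 0.00527). AT4G19800 went the other way, from 0.439, 0.864, 1.305 and 1.06 FPKM to 0.259, 0, 0.0524 and 0.156, a difference of -2.89 ± 0.64 (log2, SE, adjusted p = 0.00887). Reads of such neighbouring copies may have been divided between them in an unknown way.

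Called genes were spread over all chromosomes. Chromosome 4 had 41 of 159 tested genes higher (25.8%) and 19 lower (11.9%), and the other 4 chromosomes had 18.1 to 21.6% higher and 6.69 to 8.84% lower. There were 21 pairs of called genes that are direct neighbours in the annotation, involving 38 genes, and 20 of these pairs moved in the same direction. As 71.18% of all called genes were higher, many pairs would share a direction wherever they lay, and an excess among neighbours was not tested. The neighbouring pairs include AT2G30660 with AT2G30670, the chitinase-like pair, UGT73B2 with UGT73B1, PGIP1 with AT5G06865 and the extensins AT1G26240 and AT1G26250. Counting is not stated to use strand, so reads from overlapping neighbours could not be told apart.

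In the libraries treated with zaxinone, which are other libraries of the same genotypes, more genes passed the threshold. Of 980 tested, 256 were higher (26.1%) and 139 lower (14.2%), 40.3% in all, with a median of 0.20. Under TMM the split was 200 and 197. Leaving out 1 zaxinone library gave 190 to 296 higher and 92 (without max2 replicate 3) to 160 lower. In mock, leaving out 1 library gave 119 to 224 higher and 50 to 83 lower. The difference in number called between the treatments was not tested. The genes called higher in both sets of libraries numbered 155, which is 75.61% of the mock calls and 60.55% of the zaxinone calls. Those called lower in both numbered 52, which is 62.65% and 37.41%. Of the genes called in mock and tested in both, 188 of 196 kept a positive sign and 76 of 82 a negative sign. All these genes had been chosen for a zaxinone response in both genotypes, so how many signs were kept depends partly on that choice.

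Genes of the detoxification list that were called with zaxinone were also all lower: 14 of 29 tested were lower and 0 higher, with a median of -0.45. Over all tested genes 14.2% were lower and 26.1% higher. Under TMM 18 were lower, beside 197 of 980 over all tested genes. These genes were in the tables through a response in these same libraries, and the list was drawn up with results of these data known. The number lower was 9 without max2 zaxinone replicate 1, 9 without replicate 3 and 8 without replicate 4. UGT74E2 had 13.0, 13.9, 11.4 and 18.3 FPKM in treated Col-0 and 4.42, 5.81, 3.497 and 5.31 in treated max2, a difference of -1.57 ± 0.21 (log2, SE, adjusted p = 0.0002). All treated max2 libraries were below all treated Col-0 libraries. CCL was again lower, by -1.31 ± 0.19 (log2, SE, adjusted p = 0.000393), and ST2A by -1.52 ± 0.26 (log2, SE, adjusted p = 0.000696). SULTR1;1 was again higher, by 1.44 ± 0.21 (log2, SE, adjusted p = 0.000393), and GSTF14 by 1.76 ± 0.22 (log2, SE, adjusted p = 0.000185).

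Whether the genotype difference itself changed with treatment was tested with an interaction term over the 16 Col-0 and max2 libraries, a test added after the data had been seen. Of 1037 genes tested, 27 were called (2.6%), 18 with a difference more positive under zaxinone (1.74%) and 9 with a more negative one (0.868%). Genes that passed the authors' threshold for a zaxinone response in only a single genotype had been left out in advance, by a choice that used these same libraries. The share of 2.6% therefore holds for the chosen genes only. Among the named genes was NCED3, which with zaxinone had 6.72, 6.69, 6.26 and 5.35 FPKM in Col-0 and 3.77, 6.44, 3.92 and 4.66 in max2. These groups overlapped and differed by -0.41 ± 0.20 (log2, SE, adjusted p = 0.111). The interaction was -1.91 ± 0.33 (log2, SE, adjusted p = 0.00287).

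UGT73B3 was lower in max2 mock but with zaxinone had 76.8, 64.1, 54.4 and 68.0 FPKM in Col-0 and 61.6, 79.2, 60.7 and 73.0 in max2, overlapping groups that differed by 0.06 ± 0.16 (log2, SE, adjusted p = 0.797). Its interaction was 1.14 ± 0.22 (log2, SE, adjusted p = 0.00428). PGIP1 had an interaction of 0.93 ± 0.23 (log2, SE, adjusted p = 0.0311), which lost its call in 7 of 18 other settings: without Col-0 mock replicate 1 or 4, Col-0 zaxinone replicate 1 or 3, max2 mock replicate 2 or 3, or max2 zaxinone replicate 4.

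AT4G10270 and AT4G10265, described as wound-responsive family members, were called lower in max2 mock and higher with zaxinone, though their mock calls were not stable. AT4G10270 had 65.2, 42.9, 14.5 and 12.5 FPKM in Col-0 mock and 9.98, 6.95, 6.39 and 14.2 in max2 mock, overlapping groups in which Col-0 replicates 1 and 2 stood well above replicates 3 and 4. The mock difference was -1.84 ± 0.50 (log2, SE, adjusted p = 0.0198), and it was not called without Col-0 replicate 1 or max2 replicate 2 or 3 (adjusted p from 0.0564 to 0.0596). With zaxinone it had 4.93, 4.63, 1.48 and 2.53 FPKM in Col-0 and 57.4, 7.15, 26.1 and 37.8 in max2, a difference of 3.24 ± 0.52 (log2, SE, adjusted p = 0.000498). The interaction was 5.08 ± 0.81 (log2, SE, adjusted p = 0.0022). AT4G10265 had 5.64, 6.95, 0.750 and 0.740 FPKM in Col-0 mock and 1.05, 0.562, 0.443 and 1.18 in max2 mock, the same split of Col-0 replicates, and an interaction of 5.03 ± 0.92 (log2, SE, adjusted p = 0.00328). Its mock difference of -2.11 ± 0.71 (log2, SE, adjusted p = 0.0461) was not called without any 1 library other than Col-0 replicates 3 and 4 (adjusted p from 0.0574 to 0.124). AT4G33560, of the same family, was not called in mock, at -0.78 ± 0.73 (log2, SE, adjusted p = 0.441). With zaxinone it was higher in max2 by 5.43 (log2, adjusted p = 0.000101), and its interaction was 6.21 ± 1.09 (log2, SE, adjusted p = 0.00287). The authors' deposited table gives a zaxinone response of -3.32 in Col-0 and 1.77 in max2 for AT4G10270 (log2). These 3 genes and HRE1, a transcription factor of the low-oxygen response, were the 4 tested members of the low-oxygen list. Of these, 2 were lower in max2 mock and all 4 were higher with zaxinone (HRE1 with an adjusted p of 0.0517 under TMM). Over all tested genes 8.56% were lower in mock and 26.1% higher with zaxinone. The 2 lower in mock became 0 without Col-0 replicate 1 or max2 replicate 2 or 3. They became 1 without Col-0 replicate 2 or max2 replicate 1 or 4.

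**Figure D4:**
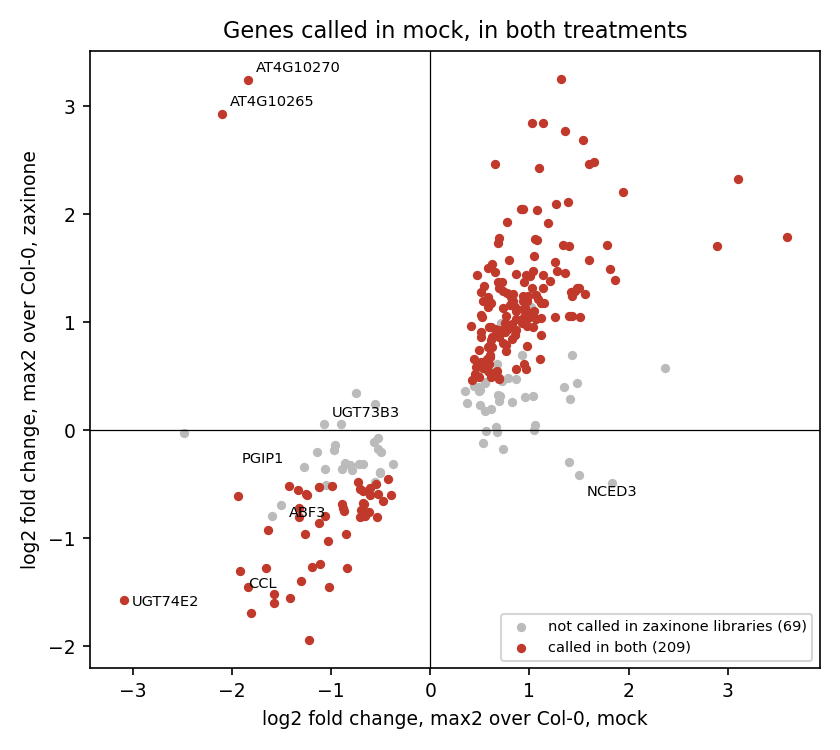
Genotype difference in zaxinone libraries (vertical, log2) against that in mock libraries (horizontal, log2) for the genes called in mock and tested in both, red where also called in the zaxinone libraries. NCED3 lies at 1.495 in mock and -0.41 with zaxinone, and AT4G10270 at -1.84 and 3.24, while most genes lie in the lower left or upper right.

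The mock roots of both receptor mutants give a reference for which of these levels were shared with d14 or kai2. Over the 827 genes in all 4 tables, max2 mock was compared with d14 mock (770 tested, 116 higher or 15.1% and 38 lower or 4.94%, 20.0% in all, median 0.12) and with kai2 mock (765 tested, 85 higher or 11.1% and 60 lower or 7.84%, 19.0% in all, median 0.03). For the same genes the comparison with Col-0 had 159 higher and 61 lower of 779 tested, with a median of 0.23. The 3 comparisons share the max2 mock libraries, so their values are given side by side and no overlap of their calls is reported. These counts were unstable. Under TMM the d14 comparison gave 57 higher and 64 lower. Leaving out libraries moved its number higher between 20 and 182: it was 20, 24, 56 and 69 without d14 replicates 1 to 4 in turn, and 182, 54 and 22 without max2 replicates 1 to 3. Its number lower was 9, 5, 20 and 15 without d14 replicates 1 to 4, and 15 and 6 without max2 replicates 2 and 3. In the kai2 comparison the number higher was 34, 36 and 54 without kai2 replicates 2 to 4 and 45, 46 and 38 without max2 replicates 2 to 4. Its number lower was 34 and 38 without kai2 replicates 2 and 3 and 36, 38 and 36 without max2 replicates 2 to 4.

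Fewer genes of the detoxification list were called against d14 than against kai2, a contrast that was not itself tested. Against d14, 1 of 22 was higher and 0 lower (median 0.22), beside 15.1% higher and 4.94% lower over all genes tested. The 0 lower lies near that share. The 1 higher was 2 without max2 replicate 1 and 3 without max2 replicate 4, and DESeq2 with its own size factors called 1 lower. Against kai2, 0 of 22 were higher and 6 lower (median -0.43, and 4 to 6 lower in the other settings, with 1 higher without kai2 replicate 1). Over all genes tested against kai2, 11.1% were higher and 7.84% lower. UGT74E2 had 0.448, 0.327, 0.285 and 0.154 FPKM in d14, overlapping max2, and 3.503, 1.05, 1.31 and 0.801 in kai2, all above max2. The max2 difference was 0.20 ± 0.38 (log2, SE, adjusted p = 0.75) from d14 and -2.26 ± 0.48 (log2, SE, adjusted p = 0.0117) from kai2. UGT73B1 had 3.85 to 4.77 FPKM in d14 and 11.8 to 13.9 in kai2, and max2 differed by 0.46 ± 0.22 (log2, SE, adjusted p = 0.154) from d14 and by -1.15 ± 0.23 (log2, SE, adjusted p = 0.00804) from kai2. UGT73B3 had 1.72 to 2.02 FPKM in d14 and 3.59 to 8.95 in kai2, with max2 differences of 0.03 ± 0.15 (log2, SE, adjusted p = 0.902) and -1.51 ± 0.29 (log2, SE, adjusted p = 0.00672). A missed threshold does not show that max2 and d14 were equal.

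PGIP1 and ABF3 were ordered in a similar way. PGIP1 had 31.1, 20.7, 27.4 and 23.63 FPKM in d14 and 53.4, 44.3, 39.0 and 47.3 in kai2, and max2 differed by -0.22 ± 0.14 (log2, SE, adjusted p = 0.303) and -1.05 ± 0.14 (log2, SE, adjusted p = 0.00133). ABF3 had 8.35, 9.14, 8.36 and 7.82 FPKM in d14, above every max2 library but below every Col-0 library, and 16.9, 13.8, 16.3 and 14.9 in kai2. Its max2 differences were -0.41 ± 0.13 (log2, SE, adjusted p = 0.0522) and -1.29 ± 0.15 (log2, SE, adjusted p = 0.000692). CYP81D11 was lower in max2 than in kai2 by a called difference of -2.23 ± 0.35 (log2, SE, adjusted p = 0.00312), and differed from d14 by -1.42 ± 0.55 (log2, SE, adjusted p = 0.0856).

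In NCED3, every max2 library was above every library of the other 3 genotypes. It had 0.328, 0.196, 0.316 and 0.491 FPKM in d14 and 0.383, 0.219, 0.440 and 0.818 in kai2, levels that overlap those of Col-0. The max2 difference was 1.79 ± 0.26 (log2, SE, adjusted p = 0.00696) from d14 and 1.33 ± 0.34 (log2, SE, adjusted p = 0.0245) from kai2. The call against kai2 was lost in 5 of 12 other settings (without kai2 replicate 2 or 3, without max2 replicate 2 or 3, and with the replicate number as a block). AO differed from kai2 by 1.40 ± 0.25 (log2, SE, adjusted p = 0.00444) and from d14 by 0.77 ± 0.22 (log2, SE, adjusted p = 0.0371), the second of which lost its call in 9 of 12 other settings, among them without any 1 of the 4 d14 libraries and without max2 replicate 2, 3 or 4. LTI30 was higher in max2 than in d14, by 0.86 ± 0.13 (log2, SE, adjusted p = 0.00696), and differed from kai2 by -0.03 ± 0.18 (log2, SE, adjusted p = 0.918). AT4G19800 was lower in max2 than in either mutant, by -2.999 ± 0.58 (log2, SE, adjusted p = 0.0113) from d14 and -3.64 ± 0.65 (log2, SE, adjusted p = 0.00444) from kai2.

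**Figure D5:**
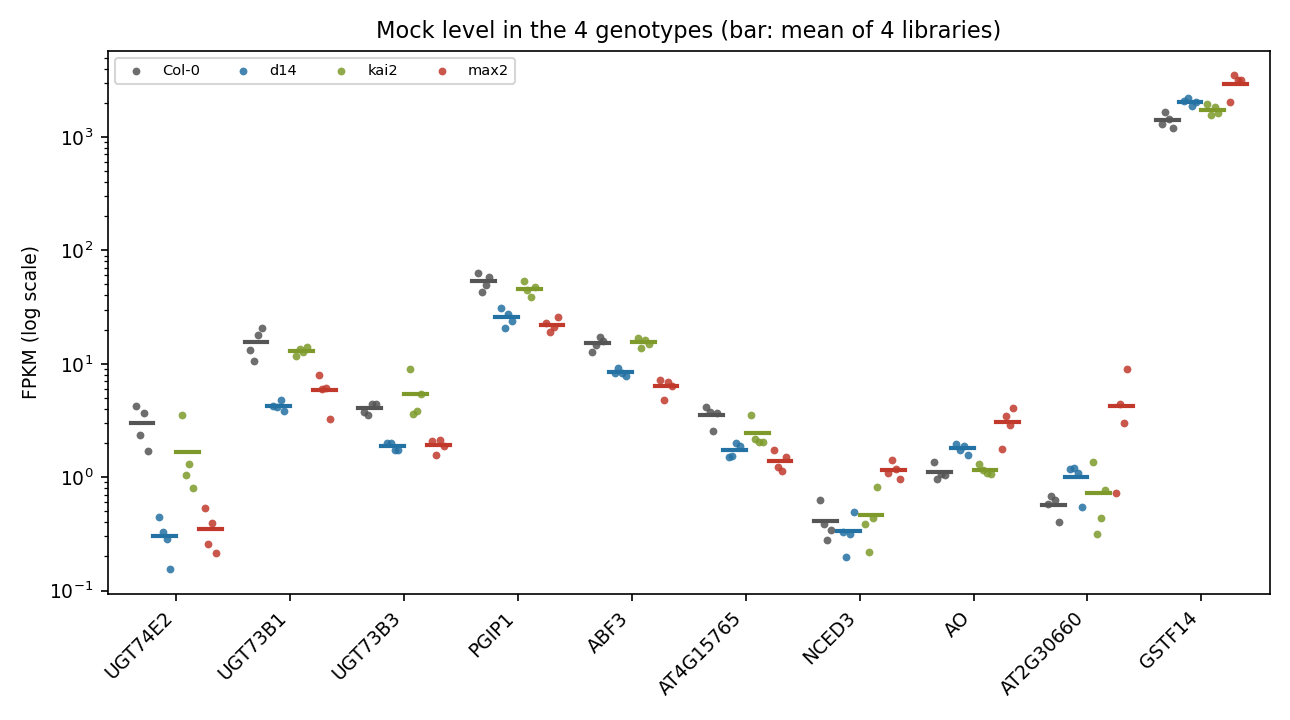
Level in each mock library (FPKM, log axis) of 10 genes in the 4 genotypes (4 libraries each), with a bar at the mean. For UGT74E2 the d14 libraries (0.154 to 0.448) overlap those of max2 and the kai2 libraries (0.801 to 3.503) lie above them, while for NCED3 the max2 libraries (0.965 to 1.43) lie highest.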

How the data were processed

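Root RNA libraries were sequenced as paired ends. The submitters' processing notes name HISAT2 and StringTie. Not given in the sources used here are tool versions, build, annotation and read counter. The deposited tables hold, for each library, the authors' raw count per gene, the authors' FPKM, and normalized counts (a signal of counts divided by size factors), with the authors' log2 fold change, p-value and adjusted p per the file headers. The 32 columns of normalized counts were not used: that of Col-0 zaxinone replicate 2 repeats 1 value. Each library's total fragments were recovered from the deposited count and FPKM. The gene lengths this gives equal the exon lengths of RefSeq TAIR10.1 in 100.0% of genes, so its positions were used.

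Counts of genes in both tables were tested with edgeR 4.0.16 (R 4.3.3, quasi-likelihood, library totals as sizes, filterByExpr with a minimum count of 10 and total of 15), with Benjamini-Hochberg adjustment over all genes tested. The 8 mock libraries entered the main comparison, and the other pairs of groups were fitted alone in the same way. Alternatives were TMM, DESeq2 1.42.0, limma 3.58.1 on log2(FPKM + 1) or log2(FPKM + 0.1), no filter, a mean count of 100, all 16 Col-0 and max2 libraries, a replicate block, an absolute log2 change of 1, and leaving out each library. Named genes were the 12 largest called changes per direction at a mean of 1 FPKM or more without overlap of the groups, the 6 most highly expressed called genes per direction, and up to 5 tested genes of lowest p per list. The members and lists were chosen with earlier results of these data known. The interaction test, the families and their leave-outs were added after the data were examined. The promoter window was the 250 bases before the gene start in RefSeq TAIR10.1. The labels do not say whether replicate numbers pair the Col-0 and max2 libraries, and the main fits did not pair them. Deviations of same-numbered libraries from their group means correlated at 0.34, 0.01, 0.39 and -0.33. Replicates 1 and 3 matched their own number best and replicates 2 and 4 did not, which does not settle whether numbers share a batch.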

Additional observations from a re-analysis of the deposited data

Results flagged for a closer look

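Chance alone marks about 1 group in 20 as holding a library far from its fellows. Among the 85 named genes 170 groups were examined, of which chance would mark about 8.5, and 8 such libraries were found. In Col-0 mock, JAZ7 was 3.29 FPKM in replicate 4 beside 1.53 to 1.71 in the others, AT4G02850 was 9.84 in replicate 1 beside 4.41 to 5.27, and AT5G05600 was 40.8 in replicate 4 beside 17.2 to 19.8. AT4G19720 was 16.6 FPKM in Col-0 mock replicate 3 beside 17.33 to 17.43, a gap of little size, and AT4G19750 was 11.6 in replicate 1 beside 22.7 to 24.0. In max2 mock, GLP9 was 787 FPKM in replicate 1 beside 1374 to 1435 (the other 3 libraries), DREB2A was 5.36 in replicate 4 beside 6.07 to 6.14, and FLS1 was 0.222 in replicate 4 beside 0.509 to 0.568.

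The genotype difference itself differed between zaxinone and mock libraries, by the interaction term on the log2 scale, in 7 named genes. It was more positive with zaxinone in UGT73B3 (1.14), PGIP1 (0.93), HRE1 (0.97), AT4G10265 (5.03), AT4G10270 (5.08) and AT4G33560 (6.21), and more negative in NCED3 (-1.91). HRE1 lost this call in 5 of 18 other settings and PGIP1 in 7 of 18.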

How the results depend on the processing

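In mock roots the 205 higher and 83 lower genes became 125 and 132 under TMM, with a median difference of 0.023 in place of 0.22, and 138 and 149 with DESeq2's own size factors. A further requirement of an absolute log2 change of 1 left 75 and 38. Leaving out 1 library gave 119 to 224 higher and 50 to 83 lower, with medians of 0.18 to 0.24. In the zaxinone libraries 215 genes were lower with DESeq2's size factors in place of 139, and leaving out 1 library gave 190 to 296 higher and 92 to 160 lower. Against d14 there were 57 higher and 64 lower under TMM, 90 lower with DESeq2's size factors, and 20 to 182 higher and 5 to 57 lower without 1 library. Against kai2 there were 99 lower with DESeq2's size factors, and 34 to 115 higher and 34 to 69 lower without 1 library. With the replicate number as a block, a pairing that the labels do not give, the counts were 218 and 80 in mock, 217 and 110 with zaxinone, 82 and 26 against d14, 33 and 31 against kai2, and 16 and 6 for the interaction. The interaction counts of 18 and 9 became 22 and 7 under TMM. The cause of these shifts was not tested.

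Of 85 named genes 56 were called in mock, 45 of these in each of 16 settings, and 0 changed direction. Those 16 do not include the absolute log2 change of 1 or the stricter count filter. The other 11 lost the call in at least 1 setting: AT4G10265, AT4G10270, CYP81F4, F3H, F6'H1, GSTU19, HB12, JAZ7, LTI30, RCI2A and SAG24.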

Other observations

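Beyond the named genes, 20 more genes were called for the change of the genotype difference with treatment, and those given here were chosen after their values were seen. HAI3, a protein phosphatase strongly induced by abscisic acid, had an interaction of -3.77 ± 0.66 (log2, SE, adjusted p = 0.00287) and was too low in mock roots to be tested there. PMAT1, a phenolic malonyltransferase of the detoxification of naphthols, had one of -1.92 ± 0.40 (adjusted p = 0.00863), with 0.82 in mock and -1.10 with zaxinone. IAGLU, which glucosylates indole-3-acetic acid, had one of -0.91 ± 0.22 (adjusted p = 0.0287), with -0.05 in mock and -0.96 with zaxinone, and lost the call in 11 of 18 other settings. AT4G27450, annotated as an aluminium-induced protein, had one of 2.18 ± 0.31 (adjusted p = 0.000996), with -0.45 in mock and 1.73 with zaxinone. A pair of extensin-like genes moved the other way from NCED3: AT4G08380 had an interaction of 1.81 ± 0.43 (adjusted p = 0.0235, lost in 7 of 18 other settings) and AT5G06630 one of 1.92 ± 0.44 (adjusted p = 0.0177), with mock differences of 1.03 and 0.38.

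In treated roots 9 of 17 tested abscisic acid response genes were lower in max2 and 1 higher, with a median of -0.59. Over all tested genes 14.2% were lower and 26.1% higher. The number lower was 4 and 5 without Col-0 zaxinone replicates 3 and 4, and 4, 5 and 5 without max2 zaxinone replicates 1, 3 and 4. The difference between the treatments was not tested for the list.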
